A study of Mus musculus with 6 samples.

Results

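The 36 genes described here encode the core machinery of macroautophagy. They were chosen by name as genes of that machinery, with earlier results of these data known. All 36 were found among the 23152 genes to which the platform annotation ties probe sets with a single symbol, and they held 607 of the 269751 probe sets. Regulatory T cells, or Tregs, keep immune responses in check, and here they had been sorted by CD4 and high CD25 from the spleens of untreated male mice aged 45 weeks kept free of specific pathogens. One group of 3 mice carried the genotype DJ-1-/- and is called KO. The other group held 3 DJ-1+/+ littermates and is called WT. DJ-1 is the protein encoded by Park7. Each mouse gave 1 Affymetrix Mouse Gene 2.0 ST array, so n = 3 in each group throughout. The labels name neither the allele, nor the part of Park7 that is missing, nor a strain background, and they restrict the knockout to no cell type.

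Macroautophagy encloses cytoplasm, proteins or whole organelles in a growing double membrane, and the closed autophagosome then fuses with lysosomes, where its content is degraded. A kinase complex around ULK1 starts the process, a lipid kinase complex around Beclin 1 and VPS34 marks the forming membrane, and a pair of ubiquitin-like conjugation reactions attaches proteins of the Atg8 family to it. Cargo receptors bind both the cargo and the Atg8 proteins. In Tregs, autophagy is known to be needed for survival and for stable lineage identity. Much of autophagy is controlled on proteins, by phosphorylation and by lipid attachment, and transcript levels do not measure autophagic flux.

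All values below are log2(intensity + 16), where a gene's value on an array is the median of its probe sets, and differences are KO minus WT on that scale. The scale is relative: probe sets differ in how well they bind, so the level of one gene was not set against that of another. The median intensity of the arrays ranged from 88.6 to 100.2. The lowest was that of KO replicate 1, whose correlation with the remaining arrays averaged 0.951, the least of the 6. Park7 was at 9.48, 9.27 and 9.70 in WT replicates 1 to 3 and at 6.06, 5.96 and 5.71 in KO replicates 1 to 3, a gap in the direction of the labels. Its difference was -3.57 (SE 0.16, limma adjusted p = 2.06e-05). Defining Treg markers were bright in both groups, with Foxp3 at a mean of 12.66 in WT and 12.73 in KO and Il2ra at 12.55 in both groups.

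No autophagy gene passed an adjusted p of 0.05 in limma. Most of their differences were small and below 0. Of the 36 genes, 35 were bright enough to be tested, and Wipi1 lay below the floor of 5.90. Among these 35, 28 had a value below 0 for KO minus WT and 7 a value above 0, with a median of -0.15 and a range from -0.56 (Gabarapl1) to 0.22 (Wipi2). Over all 13891 tested genes the median was -0.05 and 59.7% of the differences were below 0. The count of autophagy genes past the threshold was 0 of 35, where 0.274% of all tested genes passed (38 genes, 37 lower and 1 higher, or 48 lower and 7 higher with quantile normalization). An unmoderated test called 0 of all 13891 genes, and so 0 of these. At an unadjusted p of 0.05, 3 of the 35 were lower in KO (8.57%, against 7.67% of all tested genes) and 0 were higher (2.99% of all tested genes). These 3 were Ulk1, Atg14 and Gabarapl1. With quantile normalization or median centring, Gabarapl1 alone stayed under that p, as did 1588 and 1535 of all 13891 tested genes. Quantile normalization left 25 of the 35 lower, with a median of -0.097, where 52.0% of all tested genes were lower.

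In 7 of the 35 genes the groups did not overlap and KO was lower (20%, against 11.3% of all tested genes), and in 0 KO was higher without overlap (6.1% of all tested genes). The 7 were Ulk1, Becn1, Atg14, Atg10, Gabarap, Gabarapl1 and Gabarapl2. With 3 arrays against 3 an exact permutation test of a single gene cannot go below a p of 0.10. In bulk RNA of sorted cells, fewer cells of one type and less RNA per cell cannot be told apart. On this scale, which shrinks the fold changes of dim genes, the 95% interval of the difference lay within a 1.5-fold change in either direction in 22 of the 35 genes. In 12 genes the interval reached a 1.5-fold lower level, and in 1, Wipi2, a 1.5-fold higher one.

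**Figure D1:**
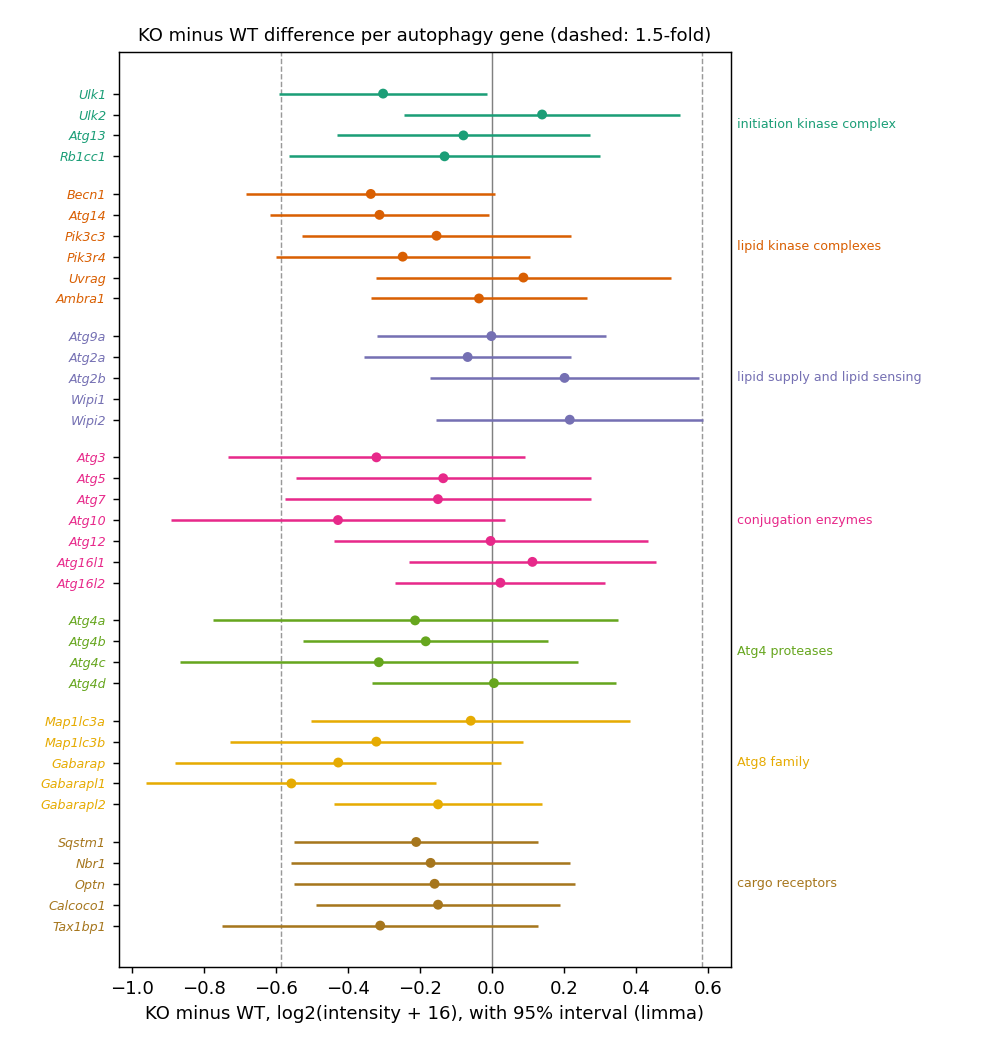
The KO minus WT difference of each tested autophagy gene (points, x axis, log2(intensity + 16)) with its 95% interval from limma (lines), genes grouped by role on the y axis and dashed lines at a 1.5-fold change. The lowest point is Gabarapl1 at -0.56, the highest is Wipi2 at 0.22, and Wipi1 was not tested.

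Most markers of other cell types also had values below 0 for KO minus WT, and their part in the differences of the autophagy genes was not tested. Of the B cell markers, 7 of 7 tested were lower and 2 passed (H2-Aa and H2-Ab1). The summed intensity of the 9 listed ranged from 3425 to 4118 in KO and from 5604 to 5937 in WT, and Cd74 and the class II genes, which other antigen-presenting cells share, hold much of that sum. Cd79a (-0.23), Cd79b (-0.17) and Cd22 (-0.03) had overlapping groups, with an adjusted p of 0.763 or more, and Pax5 and Blk lay below the floor. Of the macrophage and monocyte markers 6 of 6 tested were lower and 1 passed (Vcam1), with sums over 8 genes of 532.0 to 649.1 in KO and 690.2 to 1023 in WT. The gap between these sums rests on Vcam1, without which they overlap. Csf1r (-0.54) and C1qc (-0.47) were lower without overlap, whereas C1qa (-0.08), C1qb (-0.35) and Cd68 (-0.14) had overlapping groups. Adgre1 and Lyz2 lay below the floor. Of the NK and cytotoxic markers 5 of 7 tested were lower and 1 passed (Gzmk), with sums over 8 genes of 1928 to 2821 in KO and 3204 to 4452 in WT. The bright genes Nkg7 (-0.57) and Ccl5 (-0.98) hold much of this sum. Both were lower without overlap, as was Ncr1 (-0.85). Klrb1c was at 0.28 with KO above WT on every array, whereas Prf1 (-0.0067) and Eomes (0.03) had overlapping groups. Gzma lay below the floor. For these 3 lists the sums of the groups did not overlap. Plasma cell markers (5 genes, 4 lower, 0 passed) summed to 1674 to 2227 in KO and 1989 to 2818 in WT. CD8 T cell markers (2 genes, 1 lower, 0 passed) summed to 360.6 to 435.9 in KO and 458.2 to 505.0 in WT, and erythroid markers (4 genes, of which 2 were tested, both lower and 0 passed) to 119.1 to 214.0 and 185.2 to 226.3. The 6 Treg markers, of which 0 passed and 5 were lower, summed to 27758 to 29076 in KO and 29826 to 30034 in WT. Among them Ikzf2 (-0.20) and Cd3e (-0.19) were lower without overlap, and Foxp3 (0.06) was higher without overlap. Cd4 (-0.12), Ctla4 (-0.0050) and Il2ra (-0.0013) had overlapping groups. Summed levels of plasma cell and erythroid markers overlapped between the groups, those of CD8 T cell and Treg markers did not. The gap between the CD8 T cell sums rests on Cd8b1 (-0.30), which was lower without overlap, whereas Cd8a (0.03) had overlapping groups. No marker of these lists was at 0 on any array.

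The initiation complex was represented by 4 genes, of which 3 were lower and 1 was higher in KO, with 0 past the threshold. Ulk1, the kinase that starts autophagosome formation and that the nutrient sensor mTORC1 holds in check, was at 8.98, 9.09 and 9.11 in WT and at 8.80, 8.74 and 8.72 in KO. The groups did not overlap, and the spread within each was small (SD 0.07 in WT and 0.04 in KO). The Ulk1 difference was -0.30 (SE 0.13, unadjusted p = 0.0421, adjusted p = 0.444). Ulk1 was at -0.016 with the mean of its probe sets and at -0.18 with bright probe sets alone. Ulk2, its close relative with overlapping function, was at 7.83, 8.35 and 8.05 in WT and at 8.17, 8.40 and 8.08 in KO, so the groups overlapped and the difference was 0.14 (SE 0.17, adjusted p = 0.799), or 0.016 without WT replicate 1. The scaffold subunits Atg13 (-0.08) and Rb1cc1 (-0.13), which encodes FIP200, also had overlapping groups, and both differences were above 0 without KO replicate 1 (0.064 and 0.026).

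The lipid kinase complexes, which make phosphatidylinositol 3-phosphate on the forming membrane, had 6 genes, 5 of them lower and 1 higher in KO, and 0 passed. Becn1, the Beclin 1 scaffold that regulators of the complex bind, was at 8.59, 8.65 and 8.87 in WT and at 8.27, 8.25 and 8.59 in KO. The highest KO value and the lowest WT value were nearly the same. The Becn1 difference was -0.34 (SE 0.15, unadjusted p = 0.0555, adjusted p = 0.484), and it came from 17 probe sets, because 6 further ones also carry the symbol Cntd1 and were not used. It was -0.16 with the mean of its probe sets and -0.21 with bright probe sets alone. Atg14, the subunit that directs the kinase to autophagosome formation, was at 7.85, 8.02 and 8.01 in WT and at 7.54, 7.66 and 7.75 in KO. All 3 KO arrays lay below the WT arrays, and the Atg14 difference was -0.31 (SE 0.14, unadjusted p = 0.0459, adjusted p = 0.453). Uvrag takes the place of Atg14 in a second complex that acts at endosomes, and it was the 1 gene of this group with a difference above 0 (0.09), on overlapping arrays; the value was -0.035 with the mean of its probe sets and -0.052 without KO replicate 3. The catalytic subunit Pik3c3 (-0.15), the regulatory subunit Pik3r4 (-0.25) and the Beclin 1 partner Ambra1 (-0.04) overlapped between the groups. Without KO replicate 1, Pik3c3 was at -0.014, Pik3r4 at -0.11 and Ambra1 at 0.013.

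Genes for lipid supply and lipid sensing went both ways, with 2 of 4 tested lower, 2 higher and a median of 0.10. ATG2 proteins carry lipids into the growing membrane, the scramblase ATG9 spreads them over both leaflets, and WIPI proteins read phosphatidylinositol 3-phosphate. Wipi2 was at 9.19, 9.22 and 8.84 in WT and at 9.42, 9.07 and 9.40 in KO. One WT array was low and 1 KO array lay among the WT arrays, and the difference was 0.22 (SE 0.17, adjusted p = 0.680). With the mean of its probe sets in place of the median the Wipi2 difference was -0.15, and without WT replicate 3 it was 0.094. Atg2b was at 8.58, 8.92 and 9.04 in WT and at 8.87, 9.22 and 9.07 in KO, with overlapping groups and a difference of 0.20 (SE 0.17, adjusted p = 0.702), or 0.068 without WT replicate 1. Atg2a (-0.07) and Atg9a (-0.00064) differed by less than their standard errors (0.13 and 0.14). Wipi1, the member below the floor, was at a mean of 5.46 in WT and 5.66 in KO, while Map1lc3a, the gene nearest above the floor, was at a mean of 6.01 in WT and 5.96 in KO.

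The conjugation enzymes form the ubiquitin-like reactions that end with lipid attachment to Atg8 proteins, and of 7 genes 5 were lower and 2 higher in KO, with 0 past the threshold. ATG7 is the activating enzyme, ATG3 and ATG10 are the transfer enzymes for the Atg8 proteins and for ATG12, and ATG12, ATG5 and ATG16L1 together form the ligase. Atg10 was at 8.50, 8.69 and 8.52 in WT and at 7.65, 8.42 and 8.36 in KO. The groups did not overlap, yet KO replicate 1 lay far below the other 2 KO arrays. The Atg10 difference was -0.43 (SE 0.21, unadjusted p = 0.0676, adjusted p = 0.517), and -0.18 without KO replicate 1. Atg3 was at 10.24, 10.18 and 10.12 in WT and at 9.48, 10.19 and 9.92 in KO. One KO array lay inside the WT range, and the Atg3 difference was -0.32 (SE 0.18, adjusted p = 0.586), or -0.13 without KO replicate 1. Atg5 (-0.13) and Atg7 (-0.15) had overlapping groups and were above 0 without KO replicate 1 (0.048 and 0.035). Atg12 (-0.0029), Atg16l1 (0.11) and Atg16l2 (0.02), a relative of Atg16l1 that is dispensable for canonical autophagy, differed by less than their standard errors.

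The 4 Atg4 proteases cut the end of newly made Atg8 proteins and free them again from lipid. Of these genes 3 were lower and 1 higher in KO, and in all 4 the groups overlapped. Atg4b, the main protease for LC3B, was at 8.19, 8.15 and 8.43 in WT and at 7.93, 8.27 and 8.02 in KO, with a difference of -0.18 (SE 0.15, adjusted p = 0.703), or -0.095 without WT replicate 3 and -0.049 with the mean of its probe sets. Atg4c was at 5.80, 6.35 and 6.38 in WT and at 5.33, 6.07 and 6.20 in KO, with a difference of -0.31 (SE 0.25, adjusted p = 0.691). Replicate 1 was the lowest array of each group for Atg4c, and without KO replicate 1 its difference was -0.045. Atg4a (-0.21) had the widest spread of the 36 genes in KO (SD 0.53), with KO replicate 1 at 7.83 and the other KO arrays at 8.64 and 8.84, and its difference was 0.09 without that array. Atg4d differed by 0.0064.

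The Atg8 family is what the conjugation reactions attach to the membrane, and its 5 genes were all lower in KO, with a median of -0.32 and 0 past the threshold. Map1lc3a was at 0.014 with the mean of probe sets and above 0 without WT replicate 3 (0.048) or KO replicate 2 (0.10), and the other 4 stayed below 0 under every alternative that was run. Gabarapl1, whose product serves late steps of autophagosome formation, was at 8.53, 8.98 and 8.35 in WT and at 8.05, 8.19 and 7.94 in KO. All 3 KO arrays lay below the WT arrays. Its difference of -0.56 (SE 0.18, 95% interval -0.96 to -0.15) was the lowest of the 36 genes and had the smallest p among them (unadjusted p = 0.0119, adjusted p = 0.303). It was -0.55 without KO replicate 1, and between -0.69 and -0.38 with any single array left out. Gabarap was at 12.13, 12.20 and 12.07 in WT and at 11.24, 12.05 and 11.83 in KO. One KO array was far below the others and another lay just under the lowest WT array. The Gabarap difference was -0.43 (SE 0.20, unadjusted p = 0.0624, adjusted p = 0.502), and -0.19 without KO replicate 1.

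Gabarapl2 was at 9.96, 9.93 and 10.09 in WT and at 9.83, 9.83 and 9.88 in KO. The arrays of each group lay close together without overlap, and the difference was small (-0.15, SE 0.13, adjusted p = 0.715). Map1lc3b encodes LC3B, the usual protein marker of autophagosomes, and had a single probe set. It was at 11.06, 11.15 and 11.26 in WT and at 10.45, 11.09 and 10.97 in KO, with overlapping groups and a difference of -0.32 (SE 0.18, adjusted p = 0.581), or -0.13 without KO replicate 1. Map1lc3a was at 5.96, 5.86 and 6.23 in WT and at 5.88, 5.63 and 6.35 in KO, values near the floor with overlapping groups (difference -0.06, SE 0.20, adjusted p = 0.940).

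Cargo receptors link ubiquitin-tagged or other cargo to Atg8 proteins, and their 5 genes were all lower in KO, by -0.31 to -0.15, with overlapping groups in each and 0 past the threshold. Sqstm1 encodes p62, which is itself degraded by autophagy and is also a target gene of the antioxidant factor NRF2. It was at 11.003, 11.07 and 10.99 in WT and at 10.57, 11.01 and 10.86 in KO. One KO array reached into the narrow WT range, and the Sqstm1 difference was -0.21 (SE 0.15, adjusted p = 0.658), or -0.09 without KO replicate 1. Tax1bp1, which also restrains NF-kB signalling, was at 10.02, 10.06 and 9.87 in WT and at 9.23, 9.96 and 9.83 in KO. Again KO replicate 1 was far below the other arrays, and the Tax1bp1 difference was -0.31 (SE 0.20, adjusted p = 0.617), or -0.09 without it. Nbr1 (-0.17), Optn (-0.16) and Calcoco1 (-0.15), receptors for ubiquitin-tagged proteins, for damaged mitochondria and for the endoplasmic reticulum, differed by about their standard errors (0.17, 0.17 and 0.15). Nbr1 was at 0.0057 without KO replicate 1, Optn at 0.019 without WT replicate 2, and Calcoco1 at -0.022 without WT replicate 3. With the mean of its 17 probe sets, of which 12 were lower, Optn was at -0.31 (SE 0.12, adjusted p = 0.340).

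**Figure D2:**
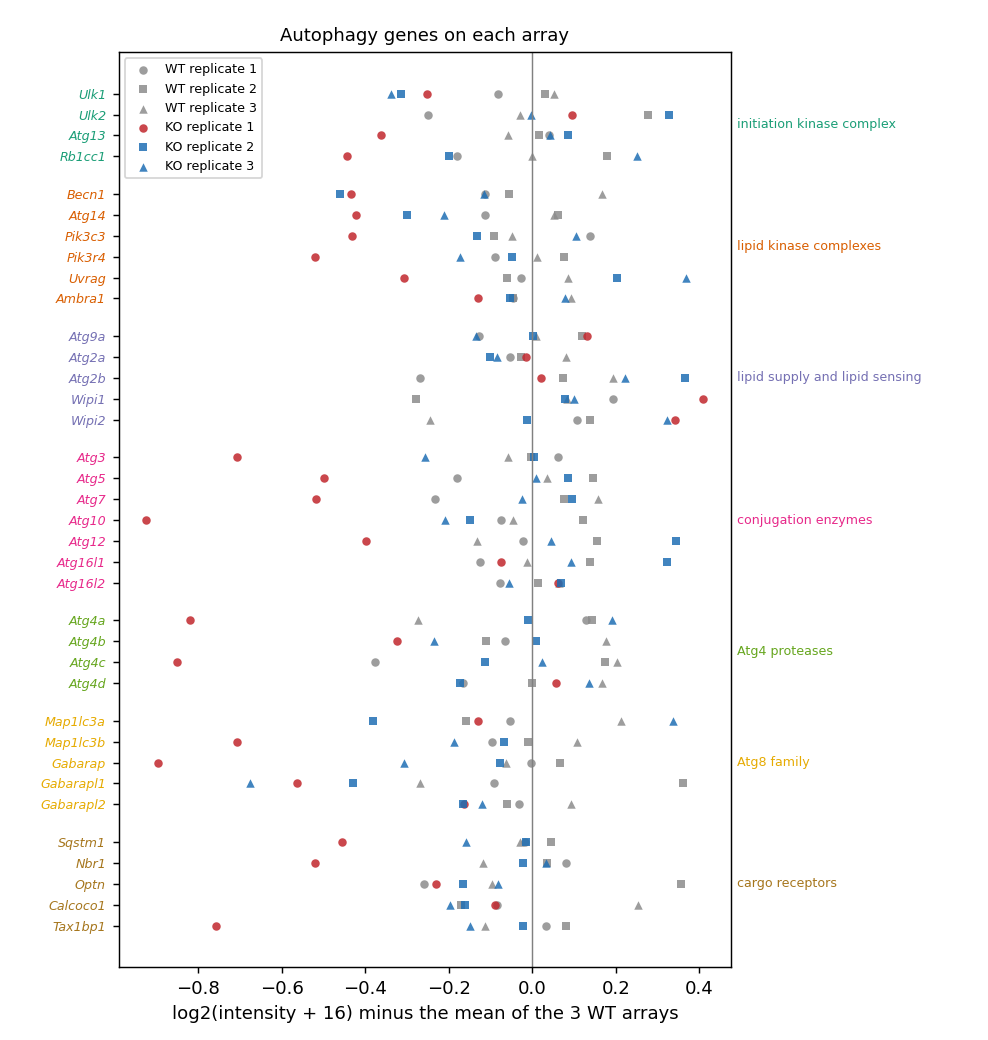
The value of each of the 36 autophagy genes on each of the 6 arrays, as log2(intensity + 16) minus the mean of the 3 WT arrays of that gene (x axis), with WT arrays in grey, KO replicate 1 in red and KO replicates 2 and 3 in blue, and genes grouped by role. KO replicate 1 is the lowest array for 20 of the 35 tested genes.

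The values furthest below WT came mostly from 1 array. KO replicate 1 was the lowest of the 6 arrays in 20 of the 35 autophagy genes, against 38.2% of all tested genes. Relative to the WT mean of each gene, the median over the 35 genes was -0.40 in KO replicate 1, -0.05 in KO replicate 2 and -0.06 in KO replicate 3, and the WT arrays lay at -0.08, 0.06 and 0.01. Over all tested genes the same median was -0.12 in KO replicate 1 and between -0.05 and 0.03 in the others. In KO replicate 1 the medians of the role groups ranged from -0.57 for the Atg4 proteases and -0.56 for the Atg8 family to 0.07 for lipid supply and lipid sensing. Without this array the median difference over the 35 genes was -0.045 in place of -0.15, 21 of 35 were lower, and the median over all tested genes was -0.0082. Without it, limma gave an unadjusted p under 0.05 to Ulk1 (-0.33, adjusted p = 0.380) and to Gabarapl1 (-0.55, adjusted p = 0.331), and to 1565 of all 13891 tested genes.

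With another array left out, the median difference lay between -0.21 and -0.12, a smaller move than without KO replicate 1, while between 0 and 5 of the genes reached an unadjusted p of 0.05. The count of 0 came without WT replicate 2, where Gabarapl1 differed by -0.38 and 6.74% of all tested genes reached that p. The count of 5 came without KO replicate 2, where 12.5% of all tested genes did. No autophagy gene passed the adjusted threshold with any array left out (lowest adjusted p 0.290, for Gabarap without KO replicate 2). The 38 genes called over the whole table became 4 when WT replicate 1 or WT replicate 2 was left out, 7 when it was WT replicate 3, and 11 when it was KO replicate 3.

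**Figure D3:**
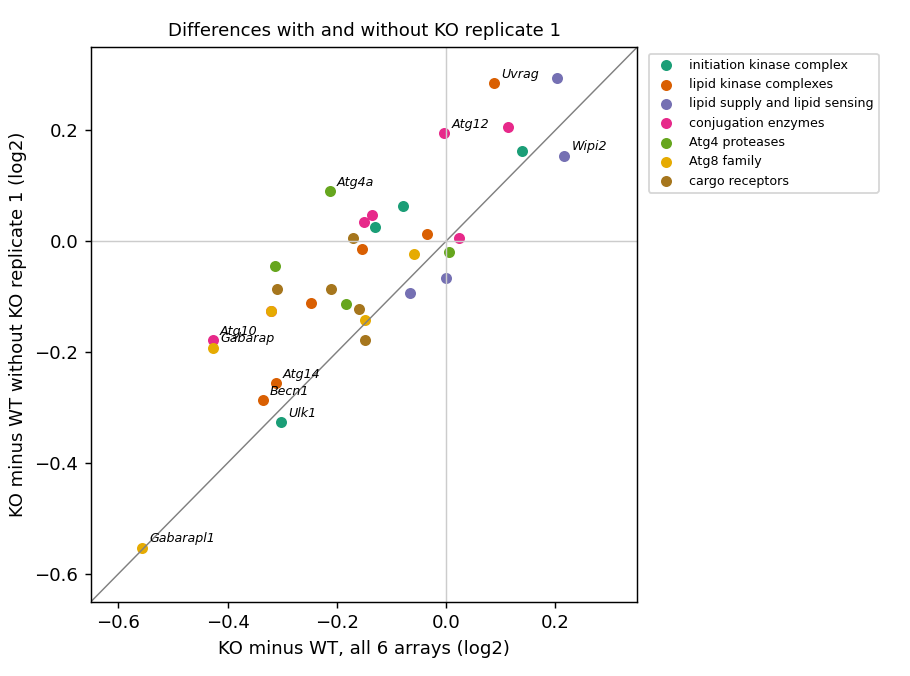
The KO minus WT difference of each of the 35 tested autophagy genes with all 6 arrays (x axis) and without KO replicate 1 (y axis), both in log2(intensity + 16), coloured by role, with the line of equal values. Gabarapl1 lies on the line at -0.56 and -0.55 and Ulk1 just under it, while Gabarap and Atg10 move from -0.43 to -0.19 and -0.18.

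The single probe sets showed which differences were shared among the probe sets of a gene. None of the 607 probe sets passed when all 269751 were tested one by one in limma (smallest adjusted p 0.510), where 0.00111% of all probe sets did. At an unadjusted p of 0.05, 25 were lower (4.37% of all probe sets are) and 17 were higher (3.23%). In 51 the KO arrays lay below the WT arrays (7.64% of all probe sets), and in 29 above (6.17%). In all, 361 of the 607 differences were below 0 (59.5%, against 53.0% of all probe sets).

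For Gabarapl1 the probe sets went one way. All 6 were lower in KO, 4 of them at an unadjusted p under 0.05, and the median of the 6 differences was -0.56, the same as the gene's difference. Probe set 17463551 was at 8.21, 8.25 and 8.35 in WT and at 7.50, 7.83 and 7.43 in KO. The brightest, 17463556, was at 10.56, 10.57 and 10.45 in WT and at 9.90, 10.09 and 9.87 in KO. In both, every KO array lay below the WT arrays, with differences of -0.68 (SE 0.16) and -0.57 (SE 0.14) and an adjusted p of 0.527 each. The probe set that differed least, 17463554, was at -0.15. Those of Atg10 went one way too (7 of 7 lower, median -0.33). Atg14 had 8 of 11 lower, with a median of -0.31 and a range from -0.83 to 0.10.

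For other genes the gene's value and its probe sets parted. The Ulk1 difference of -0.30 stood beside a median over its 24 probe sets of -0.02, with 13 lower and 11 higher. The Gabarap difference of -0.43 equalled the lowest among its 11 probe sets, whose median was -0.07. Its brightest probe set, 17251861, was at 13.09, 13.08 and 12.98 in WT and at 13.02, 13.05 and 13.05 in KO, a difference of -0.0090. With the mean of probe sets as the gene's value, the differences of Ulk1 and Gabarap were -0.016 and -0.027, while those of Gabarapl1 (-0.51) and Atg14 (-0.30) were nearly the same as with the median. In 5 of the 35 genes the difference and the median over probe sets had opposite signs: Uvrag, Ambra1, Atg2a, Wipi2 and Map1lc3a. Wipi2, the highest gene by its difference, had 11 of 15 probe sets lower.

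Atg2b leaned the other way from most of these genes. Of its 38 probe sets 24 were higher in KO, with a median of 0.21, and 4 of them reached an unadjusted p of 0.05, all higher. Probe set 17283800 of Atg2b was at 8.77, 8.72 and 8.91 in WT and at 9.54, 9.30 and 9.48 in KO, with KO above WT on every array (difference 0.64, SE 0.14, adjusted p = 0.516). In Atg7, 3 probe sets were lower and 1 was higher at an unadjusted p of 0.05, and it was the 1 gene with such probe sets in both directions. Nbr1 held the lowest p of the 607, at probe set 17256779 with 9.32, 9.07 and 9.33 in WT and 8.34, 7.94 and 8.56 in KO (difference -0.96, SE 0.20, adjusted p = 0.510), whereas the median over its 26 probe sets was -0.12. The probe sets named in these paragraphs were chosen after their values were seen.

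**Figure D4:**
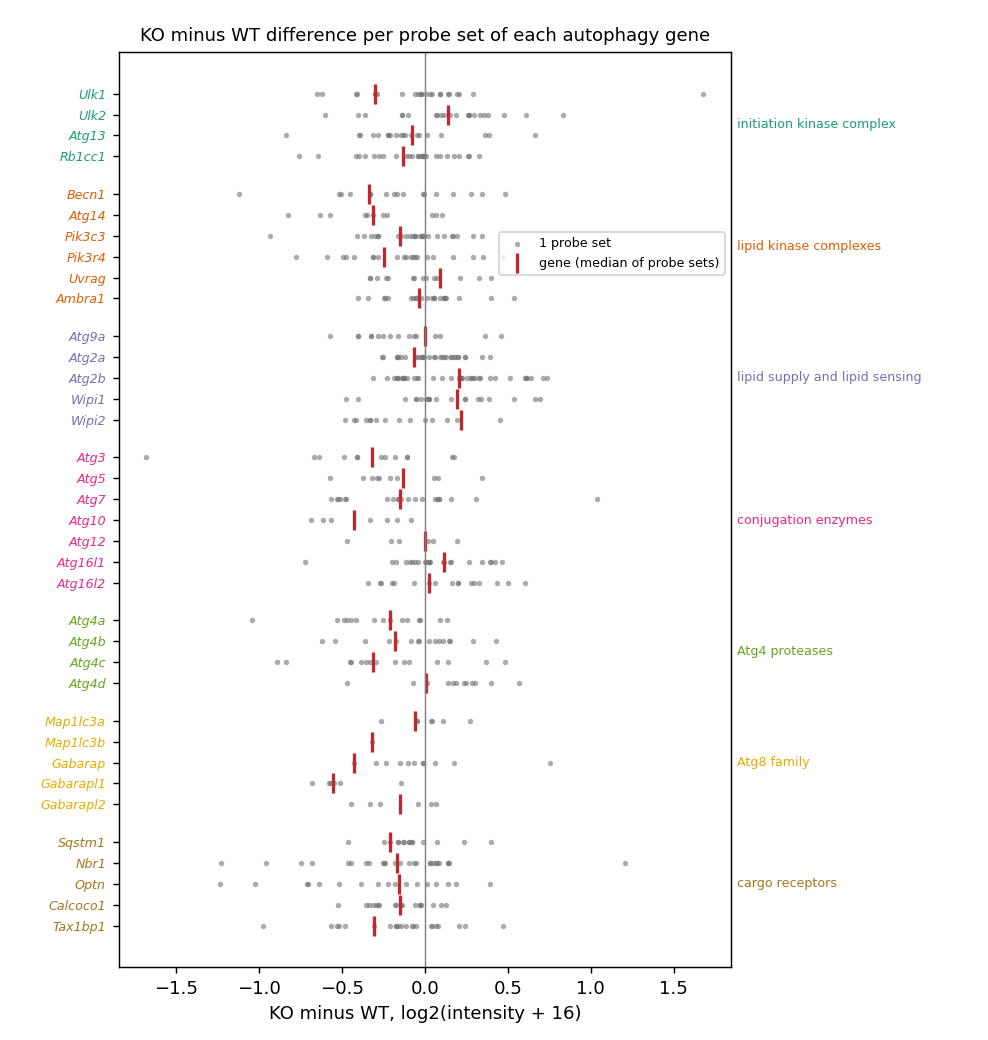
The KO minus WT difference of each of the 607 probe sets (grey points, x axis, log2(intensity + 16)) for each of the 36 autophagy genes (y axis, grouped by role), with the gene's difference from the median of its probe sets as a red bar. The 6 points of Gabarapl1 all lie below 0 around its bar, whereas the bar of Gabarap lies at the lowest of its 11 points and that of Wipi2 above most of its 15.

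Of 57 further genes of the pathway, 55 were tested, 34 were lower and 21 higher in KO (61.8% lower, against 59.7% of all tested genes), and the median was -0.05 in both. The groups did not overlap in 8 that were lower and 6 that were higher (11.3% and 6.1% of all tested genes). In limma 0 passed (5 were lower and 2 higher at an unadjusted p of 0.05, against 7.67% and 2.99% of all tested genes). Of the 13 other genes of early steps 8 were lower. Vmp1, a scramblase of the endoplasmic reticulum that helps the membrane form, was at 8.98, 9.06 and 9.03 in WT and at 8.21, 8.68 and 8.87 in KO (difference -0.44, SE 0.18, adjusted p = 0.427). Of the 14 genes for fusion with lysosomes 9 were lower, and Lamp2, a protein of the lysosomal membrane, was at 9.14, 9.56 and 9.22 in WT and at 8.55, 9.07 and 8.97 in KO (difference -0.44, SE 0.18, adjusted p = 0.425). In both genes the groups did not overlap and KO replicate 1 was the lowest array.

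Of the 14 tested genes for organelle-selective autophagy 11 were lower. Pink1, the kinase that marks damaged mitochondria for removal and that, like Park7, is mutated in inherited Parkinson disease, was at 8.75, 8.84 and 8.73 in WT and at 8.10, 8.32 and 8.21 in KO. The gap between the groups was larger than the spread within either, and with a difference of -0.56 (SE 0.13, unadjusted p = 0.0019) it still missed the threshold (adjusted p = 0.170). The receptor of the endoplasmic reticulum Ccpg1 (-0.38, adjusted p = 0.359) and the mitochondrial receptor Fundc1 (-0.50, adjusted p = 0.404) were lower without overlap. Stbd1 and, among the regulators, the AMPK subunit Prkaa2 lay below the floor.

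The upstream regulators were split, with 6 of 14 tested lower, 8 higher and a median of 0.06. The transcription factors Foxo1 and Foxo3, which induce several autophagy genes and also act in Treg development, were both higher without overlap of the groups. Foxo1 was at 10.15, 10.11 and 10.18 in WT and at 10.67, 10.40 and 10.34 in KO (difference 0.32, SE 0.14, unadjusted p = 0.0472, adjusted p = 0.459). Foxo3 was at 7.76, 8.12 and 8.28 in WT and at 8.54, 8.32 and 8.52 in KO (difference 0.41, SE 0.17, unadjusted p = 0.0342, adjusted p = 0.424). Tfeb and Tfe3, the factors that drive lysosomal and autophagy genes together, differed by 0.14 (SE 0.14, adjusted p = 0.754) and by -0.0010 (SE 0.15).

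TFEB and TFE3 bind DNA at an element built around the letters CACGTG, and FOXO factors bind the letters GTAAACA, so the 250 bases before the transcription start were searched for both on both strands in the RefSeq promoters of the assembly GRCm38.p6. Of the 36 genes 30 had an entry, with 34 promoters in all. CACGTG, which reads the same on both strands, was in 3 of the 34 (Atg3, Atg5 and Atg7), against 6.02% of 32851 promoters. The longer TCACGTGA, which contains it, was in 1 of the 34 (Atg3), against 0.785%. GTAAACA or its reverse complement TGTTTAC was in 0 of the 34, against 3.17%. A match is a description of letters, not a site in use, and its absence concerns this window and these exact letters only. Variants of GTAAACA were not searched for, such as ATAAACA, whose letters stand in the Gabarapl1 window below. The promoters are shown for the 3 genes with the lowest p and for Atg3, which holds CACGTG at 2 places, 5′ to 3′ on the strand of the gene with CACGTG in capitals. They lie at chr6:129532942-129533191 on the plus strand (Gabarapl1), chr5:110810082-110810331 on the minus strand (Ulk1), chr14:47568435-47568684 on the minus strand (Atg14) and chr16:45158579-45158828 on the plus strand (Atg3).
Gabarapl1: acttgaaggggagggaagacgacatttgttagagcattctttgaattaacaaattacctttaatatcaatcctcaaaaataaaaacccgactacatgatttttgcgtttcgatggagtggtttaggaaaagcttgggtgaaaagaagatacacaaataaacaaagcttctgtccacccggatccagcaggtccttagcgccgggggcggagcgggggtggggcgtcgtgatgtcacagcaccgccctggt
Ulk1: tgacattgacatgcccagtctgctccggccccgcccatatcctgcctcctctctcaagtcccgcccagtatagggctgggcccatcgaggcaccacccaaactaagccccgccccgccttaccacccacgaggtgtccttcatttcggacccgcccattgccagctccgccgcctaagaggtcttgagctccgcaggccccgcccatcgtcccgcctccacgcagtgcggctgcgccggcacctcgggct
Atg14: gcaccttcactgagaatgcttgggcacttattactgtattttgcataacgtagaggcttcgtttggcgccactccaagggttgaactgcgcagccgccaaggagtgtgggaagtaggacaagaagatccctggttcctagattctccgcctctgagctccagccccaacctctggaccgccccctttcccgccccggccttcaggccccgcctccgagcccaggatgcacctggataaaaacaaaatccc
Atg3: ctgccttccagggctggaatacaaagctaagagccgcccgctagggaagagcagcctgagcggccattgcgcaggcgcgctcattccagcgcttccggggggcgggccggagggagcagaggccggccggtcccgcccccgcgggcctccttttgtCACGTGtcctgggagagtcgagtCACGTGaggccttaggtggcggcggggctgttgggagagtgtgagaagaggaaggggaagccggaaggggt
In these windows the promoters of Ulk1 and Atg3 were rich in G and C (67.2% and 68.0%), that of Atg14 less so (57.2%), and that of Gabarapl1 was at 46.8%.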

How the data were processed

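Splenic Tregs of 3 KO and 3 WT mice were measured on 6 arrays. Per the labels, the authors deposited exon-level probe set intensities summarised with PLIER in Affymetrix Expression Console 1.4; how background and arrays were normalized is not given in the sources used here. These intensities are on a linear scale. From them log2(intensity + 16) was computed with no further normalization, which understates differences at low signal. Each gene took the median over probe sets for which the platform annotation gives 1 symbol (233753 of 269751; 5106 with several and 30892 with none were not used). Of 23152 genes, those under the 40th percentile of the mean (5.90) were left out. The KO minus WT contrast was fitted in R 4.3.3 by limma 3.58.1 (lmFit and eBayes, two-sided, Benjamini-Hochberg over all genes or all probe sets, threshold 0.05); every adjusted p comes from it. The test was checked on simulated data. Each array has its own mouse in the labels, which give no scan batch.

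The members and lists were chosen with earlier results of these data known. Array values are given for members with an unadjusted p under 0.05 and for the 5 Atg8 genes. They are also given for the 2 members with the smallest p in each of 7 role groups. Of other pathway genes, those under that p of 0.05, or else the 2 smallest, are named. Tfeb and Tfe3, and Stbd1 and Prkaa2 below the floor, are named besides. Among the 57 other pathway genes 5 were matched through RefSeq synonyms. Alternatives were other pseudocounts, filters, summaries, scalings and variance models, a replicate block and leaving out each array.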

Additional observations from a re-analysis of the deposited data

How the results depend on the processing

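No autophagy gene passed under any of the alternatives run, and the smallest adjusted p among them was 0.174 (Gabarapl1, mean of probe sets). Over all genes the count of 38 became 60 with the mean of probe sets, 67 with the replicate block and 0 in an unmoderated test (1335 at an unadjusted p under 0.05), which put Park7 at -3.57 with an adjusted p of 0.0905; leaving out 1 array gave 4 to 37. Over all probe sets the count of 3 became 79 and 8 with pseudocounts of 1 and 64, 14 with a filter at the 60th percentile, 7 with quantile normalization, 10 with median centring, 6 with a variance trend, 6 unmoderated and 0 with the replicate block, and 0 to 2 with 1 array left out. No probe set of the autophagy genes passed in these fits. The replicate numbers are not stated to pair mice, and same-numbered arrays correlated at 0.15, 0.169 and 0.0101 in their deviations from the group means, with WT replicate 3 closest to KO replicate 1 (0.0304); under the block the smallest adjusted p of an autophagy gene was 0.185.

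Of the 35 differences 18 kept their sign under every alternative, 8 changed it under one other than a left-out array, and 14 with an array left out. With the mean of probe sets Uvrag was at -0.035, Ambra1 at 0.0057, Atg2a at 0.048, Wipi2 at -0.15 and Map1lc3a at 0.014. With quantile normalization Ambra1 was at 0.0043, Atg9a at 0.054 and Atg12 at 0.056, with median centring Atg9a at 0.034 and Atg12 at 0.032, and with bright probe sets alone Pik3c3 at 0.046 and Atg9a at 0.039. Leaving out 1 array gave ranges of -0.16 to 0.064 for Atg13, -0.32 to 0.026 for Rb1cc1, -0.052 to 0.29 for Uvrag, -0.091 to 0.013 for Ambra1, -0.066 to 0.066 for Atg9a, -0.24 to 0.048 for Atg5, -0.27 to 0.035 for Atg7, -0.18 to 0.20 for Atg12, -0.014 to 0.065 for Atg16l2, -0.41 to 0.091 for Atg4a, -0.077 to 0.096 for Atg4d, -0.26 to 0.10 for Map1lc3a, -0.27 to 0.0057 for Nbr1 and -0.29 to 0.019 for Optn. The cause was not tested. With 3 arrays a group the number of arrays limits the precision.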
